A study of Mus musculus with 6 samples.

Results

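Ribosome biogenesis and rRNA processing factors were examined as a group of 41 listed nucleolar genes, all 41 of which were found by symbol among the 17068 genes of the deposited count matrix from embryonic mouse lateral cortex. The list was given by name, but it was chosen with earlier results of these data known. No member was lost to the filter on low counts that the authors had applied. The members fall into 8 groups by complex or step, namely UTP-A (6 genes), UTP-B (6), Mpp10 (4), the box C/D particle with U3 (4), the box H/ACA particle (2), other factors of the small-subunit (SSU) processome (11), maturation of the pre-40S particle (3) and assembly of the 60S subunit (5).

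Lateral cortex from 6 female c57/bl6 embryos at embryonic day (E)12.5 was sequenced in bulk, with 4 Cre-negative embryos as controls and 2 embryos labelled Foxp1cKO. Controls 1, 2 and 4 were Foxp1 fl/+ and control 3 was Foxp1 fl/fl, so every library carried at least 1 floxed Foxp1 allele. The Foxp1cKO embryos were Foxp1 fl/fl;Emx1Cre, and Emx1 drives Cre in progenitors of the dorsal telencephalon and their progeny, so cells outside that lineage, such as vessels, blood and microglia, keep the floxed alleles unrecombined. The comparison asks what the early cortex transcribes differently when this forkhead transcription factor is removed from its progenitors. In bulk tissue, fewer cells of a type and less RNA per cell cannot be told apart.

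Ribosomes are made in the nucleolus, where RNA polymerase I transcribes a long precursor that holds the RNAs of both subunits. UTP-A, UTP-B and the U3 particle bind the start of that precursor and build the SSU processome around it, in which the small-subunit RNA is folded, modified and cut free, while other factors assemble the large subunit. Proliferating progenitors such as the radial glia of the early cortex are known for large nucleoli and high output of this pathway, and Myc proteins, which bind the E-box CACGTG, are its best known transcriptional activators.

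The promoters of the members were read from RefSeq (GRCm38.p6, 250 bases before to 50 after each start), in which 33 of the 41 members had an entry. The palindromic E-box CACGTG was present in 9 of these 33 promoters (27.3%), against 8.1% of all 27025 promoters and 11.1% of the 12174 promoters of genes in the count matrix. Those 9 sites are printed because they carry the motif for which this gene family is known. Each line gives 30 bases from 5′ to 3′ on the gene's strand, with the E-box in capitals.
Utp4 (chr8:106893643-106893672, plus strand): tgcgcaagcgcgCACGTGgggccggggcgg
Nol11 (chr11:107189407-107189436, minus strand): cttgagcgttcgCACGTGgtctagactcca
Wdr43 (chr17:71616220-71616249, plus strand): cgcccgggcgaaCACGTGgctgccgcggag
Utp18 (chr11:93885769-93885798, minus strand): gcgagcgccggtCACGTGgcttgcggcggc
Imp4 (chr1:34439696-34439725, plus strand): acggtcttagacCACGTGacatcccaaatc
Utp20 (chr10:88826765-88826794, minus strand): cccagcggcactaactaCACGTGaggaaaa
Wdr46 (chr17:33940699-33940728, plus strand): aagggagtttcgCACGTGgatcgttgttcg
Pno1 (chr11:17211540-17211569, minus strand): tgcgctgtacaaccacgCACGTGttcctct
Nop2 (chr6:125131811-125131840, plus strand): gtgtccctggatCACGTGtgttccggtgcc

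The shorter string ACGTG, which every CACGTG contains, was present in 14 members (42.4%), against 21.8% of all promoters and 28.2% of those of genes in the matrix. CCGGAAG, a core bound by ETS family factors, was present on either strand in 14 members (42.4%), against 9.9% of all promoters and 17.6% of those of genes in the matrix. The 3 sites shown are examples from members whose libraries separated by group. They lie upstream of the annotated start (by 16, 21 and 80 bases) and are in capitals, and that of Nol10 reads on the opposite strand as CTTCCGG. Sites of Nop2 (first base at -38) and Wdr46 (at -61 and -58) met the same conditions and are not shown.
Heatr1 (chr13:12395348-12395377, plus strand): gtagtgagaagCCGGAAGttcctatgaggc
Pwp2 (chr10:78185152-78185181, minus strand): gcggctccgccCCGGAAGtgcgcgttttaa
Nol10 (chr12:17348402-17348431, plus strand): gtgagcgcgcaCTTCCGGagccaggaagtg

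CCAAT was present in 16 members (48.5%) against 41.1% and 42.4% of these, and TATAAA in 2 members (6.1%) against 15.7% and 9.1%. The forkhead string GTAAACA or its reverse complement was found in 0 of the 33 windows against 4.1% of all promoters and 3.1% of those of genes in the matrix, which says only that these letters are not in these windows. Motif matches are a description of the letters and were not tested.

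The libraries held 50076008 to 78346979 counts, and the member with the fewest reads still had 876 counts in its lowest library. Counts were scaled to CPM, the counts of a library brought to a common total with edgeR's TMM factors, and each gene was tested between the groups by edgeR's quasi-likelihood method, fitted to all 17068 genes with Benjamini-Hochberg adjustment and a threshold of 0.05. A log2 fold change is that of the libraries labelled Foxp1cKO over the controls. Foxp1 itself (ENSMUSG00000030067.17) was at 59.7, 60.8, 71.2 and 79.1 CPM in controls 1 to 4 and at 83.2 and 76.8 CPM in the libraries labelled Foxp1cKO 1 and 2, a log2 fold change of 0.24 (SE 0.129, edgeR Benjamini-Hochberg adjusted p = 0.468). Both Foxp1cKO libraries thus exceeded the control mean in Foxp1 transcript, and the groups are named by their labels. This count is over the whole gene, so it cannot show whether the floxed exons were removed or how much Foxp1 protein was left. The cortical genes Pax6, Emx2, Tbr1 and Neurod6 averaged 224, 82.9, 352 and 403 CPM over all libraries. Control 3, the only Foxp1 fl/fl control, stood apart in markers of the ventral telencephalon, with a mean log2 CPM of 6.33 over 8 genes against 4.12 to 4.79 in the other controls and 5.30 and 4.73 in the libraries labelled Foxp1cKO.

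The ribosome biogenesis members were mildly lower in the libraries labelled Foxp1cKO, 40 of 41 by the sign of the fold change, while 50.7% of all genes were lower. Their median log2 fold change was -0.20, a median change of -12.6%, against a median of -0.0044 over all genes. The range ran from -0.50 for Tbl3 to 0.09 for Noc2l. By edgeR's quasi-likelihood test 0 members passed the adjusted threshold, and Benjamini-Hochberg adjusted p ran from 0.219 to 0.988. The test called 0.152% of all genes, and 0% of them as lower. At an unadjusted p under 0.05 there were 15 members, all lower, against 13.0% of all genes in either direction and 6.50% lower. That number depended on the libraries, with 8, 9, 22 and 10 members without controls 1, 2, 3 and 4. The share of all genes lower at that p was 4.29%, 3.81%, 9.39% and 9.36% in those fits. It also depended on the scaling, with 7 members under total counts, against 5.23% of all genes lower. DESeq2's Wald test called 2 members lower, Bysl and Tbl3, beside 1.31% of the genes it tested. The authors' own DESeq2 model, which also held litter, lists Heatr1, Pno1, Tbl3 and Utp6 among its top downregulated genes. That fit could not be repeated here without the litter of each embryo.

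Averaged over the 41 members, log2 CPM was 5.93, 5.85, 5.73 and 6.03 in controls 1 to 4 and 5.67 and 5.72 in the libraries labelled Foxp1cKO 1 and 2. Both Foxp1cKO libraries therefore lay under all controls, but Foxp1cKO 2 was almost level with control 3. The group means were 5.89 ± 0.128 (SD, n = 4) and 5.70 ± 0.0338 (SD, n = 2), a difference of -0.19. With 4 against 2 an exact rank-sum test (two-sided) cannot go below 0.133, so no test was made. Gene by gene, both Foxp1cKO libraries were below all 4 controls for 20 members, where 13.1% of all genes showed the same separation. The other 21 members overlapped between the groups. Without control 3, 32 members separated in this way, against 21.3% of all genes, and the median log2 fold change of all 41 members was -0.25. Without control 4 that median was -0.15, with 35 members lower. The heat map of the members by library shows both features, the lower Foxp1cKO columns and the spread among controls.

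**Figure D1:**
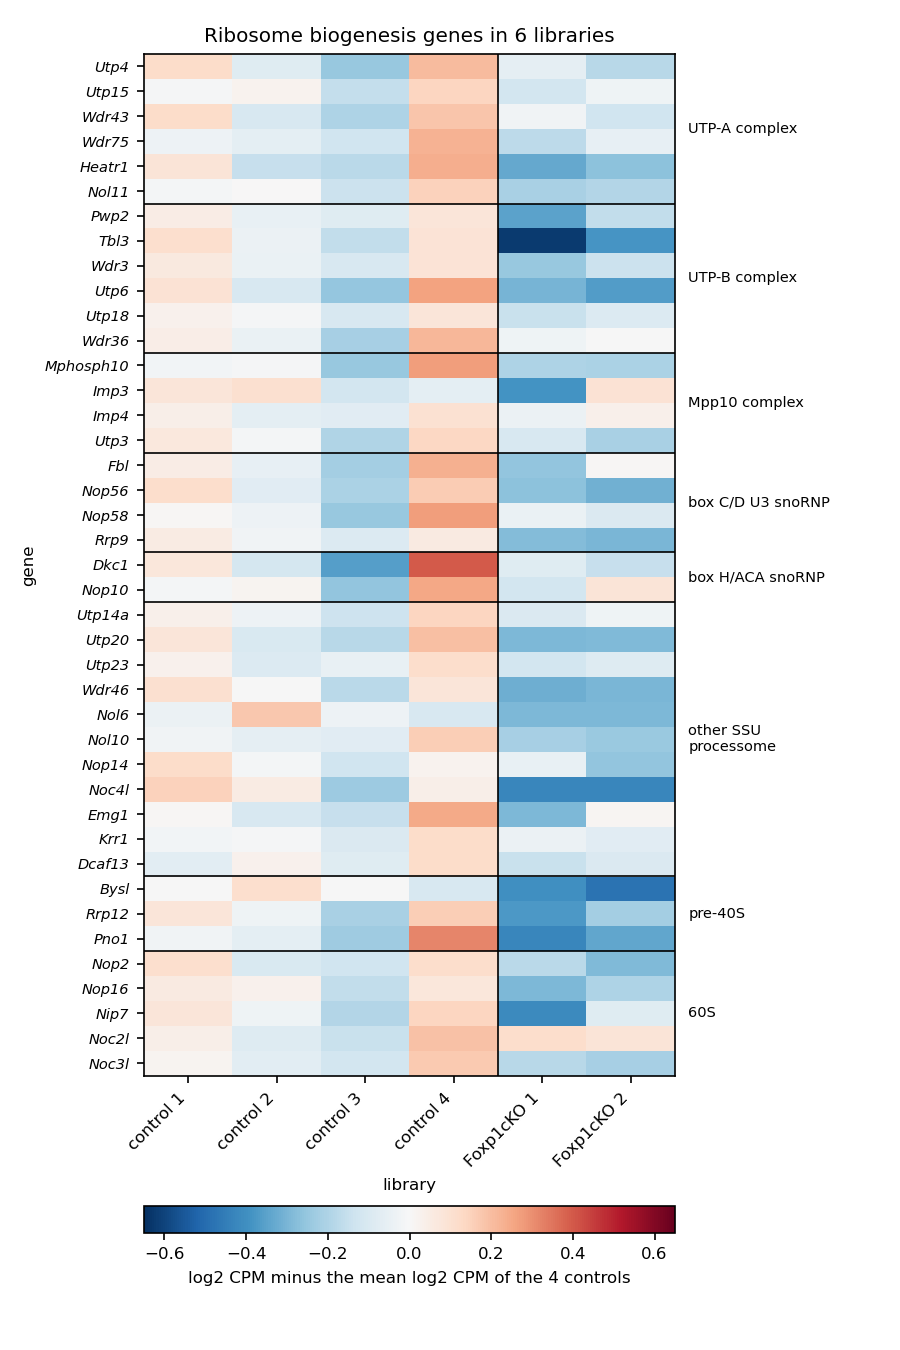
Level of each of the 41 members in the 6 libraries, as log2 CPM minus the mean log2 CPM of the 4 controls (color scale), with members in rows by complex or step and libraries in columns. The 2 Foxp1cKO columns are below the control mean for most members, control 3 is also low and control 4 is high.

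The controls were ordered in nearly the same way for most members. Control 4 was the highest control for 34 of 41 members (36.3% of all genes), and control 3 was the lowest control for 38 of 41 (34.5% of all genes). Taking all 6 libraries, 34 members were highest in control 4, 4 in control 1 and 3 in control 2, and 0 were highest in a library labelled Foxp1cKO. The lowest library was Foxp1cKO 1 for 19 members, control 3 for 12 and Foxp1cKO 2 for 10. Since the members moved together across the controls, they are not independent measurements of the group difference.

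Set against each control in turn, the mean of the Foxp1cKO libraries was lower than control 1 for 40 members with a median log2 difference of -0.23, than control 2 for 36 (-0.15), than control 3 for 25 (-0.051) and than control 4 for all 41 (-0.34). The difference was thus smallest against the only control with the Foxp1 fl/fl genotype. That genotype and the ventral markers of control 3 are present in the same single library and cannot be told apart.

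UTP-A is the first complex to join the nascent precursor, and its proteins are also needed for full transcription of ribosomal DNA. All 6 members were lower, with log2 fold changes of -0.31 to -0.078 and a median of -0.12. The median was -0.046 without control 4 and -0.20 without control 3. Heatr1 (ENSMUSG00000050244.9, chromosome 13, 12395027 to 12440289, plus strand), the HEAT-repeat scaffold of the complex, was at 124, 105, 104 and 138 CPM in controls 1 to 4 and at 93.0 and 97.3 CPM in the libraries labelled Foxp1cKO. Both Foxp1cKO libraries were under every control. Its log2 fold change was -0.31 (SE 0.131, -19.3%, edgeR Benjamini-Hochberg adjusted p = 0.382).

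Nol11, the other UTP-A member that separated by group, was at 76.0 to 92.8 CPM in the controls and at 72.3 and 73.2 CPM in the Foxp1cKO libraries. The WD-repeat proteins Utp4, Wdr43 and Wdr75 and their partner Utp15 overlapped between the groups, with log2 fold changes of -0.13, -0.084, -0.12 and -0.078. Utp4, for instance, was at 41.2 CPM in control 3, below both Foxp1cKO libraries at 47.0 and 43.2 CPM, and at 56.4 CPM in control 4.

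UTP-B joins after UTP-A and helps to place the U3 RNA on the precursor. It held the member with the lowest fold change and had a median log2 fold change of -0.22. Of its 6 members 4 separated by group, against 13.1% of all genes. Tbl3 (ENSMUSG00000040688.16, chromosome 17, 24697949 to 24707660, minus strand), a WD-repeat subunit, was at 73.8, 66.7, 61.1 and 72.6 CPM in the controls and at 44.5 and 52.3 CPM in the Foxp1cKO libraries. The highest Foxp1cKO library was well under the lowest control. Its log2 fold change was -0.50 (SE 0.112, -29.4%), with an adjusted p of 0.242 by edgeR and of 0.0086 by DESeq2 (both Benjamini-Hochberg). Of the exon bases of Tbl3, 37.3% are shared with Noxo1 on the opposite strand, which was at 3.09 to 4.01 CPM in all libraries, and whether the counting used strand was not given in the sources used here.

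Pwp2, the WD-repeat subunit at the core of UTP-B, was at 40.6 to 45.2 CPM in the controls and at 33.6 and 38.4 CPM in the Foxp1cKO libraries (log2 fold change -0.25). Utp6 had a log2 fold change of -0.35, but its controls ran from 103 to 148 CPM. Wdr3 separated by group with a smaller difference (-0.20). Utp18 and Wdr36, at -0.12 and -0.024, overlapped between the groups, and Wdr36 was at 0.053 without control 4.

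The Mpp10 complex enters the processome with its own set of subunits, and Utp3 is bound beside it. All 4 members were lower by the fitted value, with a median log2 fold change of -0.15. However, 0 of them separated by group, against 13.1% of all genes. Without Foxp1cKO 1 the median was -0.093 with 2 of 4 lower, and without control 4 there were 3 lower. Mphosph10 (ENSMUSG00000030521.11, chromosome 7, 64376527 to 64392268, minus strand), the subunit that names the complex, was at 42.1, 42.5, 35.9 and 51.4 CPM in the controls and at 37.1 and 37.0 CPM in the Foxp1cKO libraries. Control 3 was below both Foxp1cKO libraries and the other controls were above them. Its log2 fold change was -0.22 (SE 0.14, edgeR Benjamini-Hochberg adjusted p = 0.539).

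Imp3 and Imp4, which pair U3 with the precursor, were close to the controls. Imp3 had 22.1 CPM in the library labelled Foxp1cKO 1 and 31.0 CPM in Foxp1cKO 2, a wider gap than among its controls (26.6 to 31.1 CPM), and its log2 fold change went from -0.13 to 0.093 without Foxp1cKO 1. Imp4 was at 62.9 and 66.2 CPM in the Foxp1cKO libraries, inside its control range of 61.4 to 69.3 CPM (log2 fold change -0.0043), and its fold change was 0.032 without Foxp1cKO 1 and 0.030 without control 4. Utp3 had a log2 fold change of -0.16.

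The box C/D particle carries U3, which directs cutting of the precursor, and guide RNAs for ribose methylation. Its methyltransferase Fbl (fibrillarin) was at 55.1 to 75.4 CPM in the controls and at 53.7 and 64.5 CPM in the Foxp1cKO libraries, with overlap between the groups (log2 fold change -0.13). Rrp9 (ENSMUSG00000041506.15, chromosome 9, 106475963 to 106485424, plus strand), the protein specific to U3, was at 28.1, 26.7, 25.5 and 28.3 CPM in the controls and at 22.4 and 22.1 CPM in the Foxp1cKO libraries. Both groups were tight and did not overlap, and the log2 fold change was -0.29 (SE 0.088, -18.1%, edgeR Benjamini-Hochberg adjusted p = 0.289).

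Nop56, a scaffold of all box C/D particles and the most abundant member per length, separated by group with 151 to 195 CPM in the controls and 145 and 140.3 CPM in the Foxp1cKO libraries (log2 fold change -0.30). Its partner Nop58 did not, with 142 to 204 CPM in the controls and 164 and 159 CPM in the Foxp1cKO libraries (log2 fold change -0.080, and 0.018 without control 4). Both genes host small nucleolar RNAs that share exon bases with them on the same strand, under the annotation used here.

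The box H/ACA particle converts uridine to pseudouridine in rRNA and also holds telomerase RNA. Its 2 members had the highest median coefficient of variation among controls of the 8 groups, 18.4% against 9.13% over all members. Dkc1 was at 22.4% and Nop10 at 14.4%, and Pno1 of the pre-40S group, at 16.6%, varied more than Nop10. The pseudouridine synthase Dkc1 (ENSMUSG00000031403.14, chromosome X, 75095854 to 75109777, plus strand) was at 82.7, 72.4, 61.3 and 103 CPM in the controls, a 1.69-fold range, and at 74.3 and 70.9 CPM in the Foxp1cKO libraries. The Foxp1cKO values lay inside the control range. Its log2 fold change was -0.14 (SE 0.194, edgeR Benjamini-Hochberg adjusted p = 0.796), and without control 4 it was 0.0089. Nop10, a small core protein of the same particle, had a log2 fold change of -0.025, which was 0.066 without control 4 and 0.072 without Foxp1cKO 1.

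Among the other 11 factors of the SSU processome, all were lower by the fitted value, with a median log2 fold change of -0.15. Of these, 6 separated by group, against 13.1% of all genes. Without either of the Foxp1cKO libraries the median was lower, at -0.24 (without 1) and -0.23 (without 2). Noc4l (ENSMUSG00000033294.11, chromosome 5, 110648418 to 110653417, minus strand), the partner of Nop14, was at 41.6, 38.9, 31.8 and 38.5 CPM in the controls and at 27.9 CPM in both Foxp1cKO libraries. Both were below every control, and control 3 was the nearest. The log2 fold change was -0.43 (SE 0.118, -25.9%), with an adjusted p of 0.269 by edgeR and 0.0529 by DESeq2 (both Benjamini-Hochberg). Nop14 itself overlapped between the groups, with 52.5 to 62.5 CPM in the controls and 55.5 and 48.1 CPM in the Foxp1cKO libraries (log2 fold change -0.15).

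Wdr46, a scaffold of the processome, was at 36.3 to 44.0 CPM in the controls and at 33.0 and 33.3 CPM in the Foxp1cKO libraries (log2 fold change -0.31). Nol6 was at 59.3 and 59.2 CPM against 67.5 to 82.1 CPM, and its highest control was control 2 rather than control 4 (-0.30). Utp20, a very large HEAT-repeat protein, was at 86.5 and 86.8 CPM against 93.4 to 121 CPM (-0.30).

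Nol10 also separated, with 45.9 and 45.1 CPM against 50.6 to 59.4 CPM (log2 fold change -0.23). Dcaf13, the least abundant member per length, separated by a narrow margin, with 50.6 CPM in Foxp1cKO 2 and 51.1 CPM in control 3 (-0.12). The remaining 4, Emg1 (a methyltransferase of the small-subunit RNA), Krr1, Utp23 and Utp14a (an activator of an RNA helicase), had log2 fold changes of -0.14, -0.058, -0.10 and -0.064 and overlapped between the groups. Emg1 was at 67.0 CPM in the library labelled Foxp1cKO 1 and 82.7 CPM in Foxp1cKO 2, and its log2 fold change was 0.0021 without the former.

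The 3 factors that act late, on the pre-40S particle, had the lowest median of the 8 groups, -0.39. All 3 separated by group, against 13.1% of all genes. Bysl (ENSMUSG00000023988.8, chromosome 17, 47599331 to 47611492, minus strand), which binds the particle in the nucleus and leaves it near export, was at 41.9, 45.4, 42.0 and 39.1 CPM in the controls and at 31.9 and 30.1 CPM in the Foxp1cKO libraries. It had the lowest p of all members and did not follow the usual order of the controls, since control 4 was its lowest. Its log2 fold change was -0.44 (SE 0.0882, -26.3%), with an adjusted p of 0.219 by edgeR and of 0.0052 by DESeq2 (both Benjamini-Hochberg). Over the other scalings and with each library left out in turn it stayed between -0.48 and -0.40. Bysl shares 9.37% of its exon bases with Ccnd3 on the opposite strand, which was at 33.4 to 50.7 CPM in the controls and at 52.3 and 53.3 CPM in the Foxp1cKO libraries.

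Pno1, which positions the nuclease that makes the final cut of the small-subunit RNA, was at 25.9, 25.2, 22.5 and 32.8 CPM in the controls and at 19.7 and 20.8 CPM in the Foxp1cKO libraries (log2 fold change -0.39). The libraries separated, but control 4 was far above the other controls, and without it the median of these 3 genes was -0.28. Rrp12, a HEAT-repeat protein of export, was at 43.2 to 55.9 CPM in the controls and at 38.7 and 43.0 CPM in the Foxp1cKO libraries (-0.30), and the value in Foxp1cKO 2 was almost that of control 3.

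Of the 5 factors that act on the large subunit, 4 were lower and 1 was higher, with a median log2 fold change of -0.23. Nop16 (ENSMUSG00000025869.11, chromosome 13, 54584185 to 54590090, minus strand) was at 27.1, 26.5, 23.3 and 27.4 CPM in the controls and at 21.2 and 22.6 CPM in the Foxp1cKO libraries. Its groups did not overlap, with control 3 the nearest, and the log2 fold change was -0.25 (SE 0.102, edgeR Benjamini-Hochberg adjusted p = 0.371). Nop2, a cytosine methyltransferase of the large-subunit RNA, and Noc3l also separated, with log2 fold changes of -0.23 and -0.20. Nip7 did not, with 33.3 CPM in the library labelled Foxp1cKO 1 and 42.0 CPM in Foxp1cKO 2 against 38.8 to 48.9 CPM in the controls (-0.24).

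Noc2l (ENSMUSG00000095567.7, chromosome 4, 156236010 to 156247616, plus strand) was the only member with a positive fold change. It forms a dimer with Noc3l in the nucleolus and is also known as an inhibitor of histone acetylation. It was at 124, 114, 109 and 138 CPM in the controls and at 131 and 128 CPM in the Foxp1cKO libraries, so both were inside the control range and below control 4. The log2 fold change was 0.09 (SE 0.105, edgeR Benjamini-Hochberg adjusted p = 0.745), and it was positive under both other scalings and with each library left out. Of its exon bases, 20.9% are shared with Samd11 on the opposite strand, which was at 0.597 to 1.49 CPM. The plot of fold changes shows Noc2l to the right of zero and all other members to the left.

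**Figure D2:**
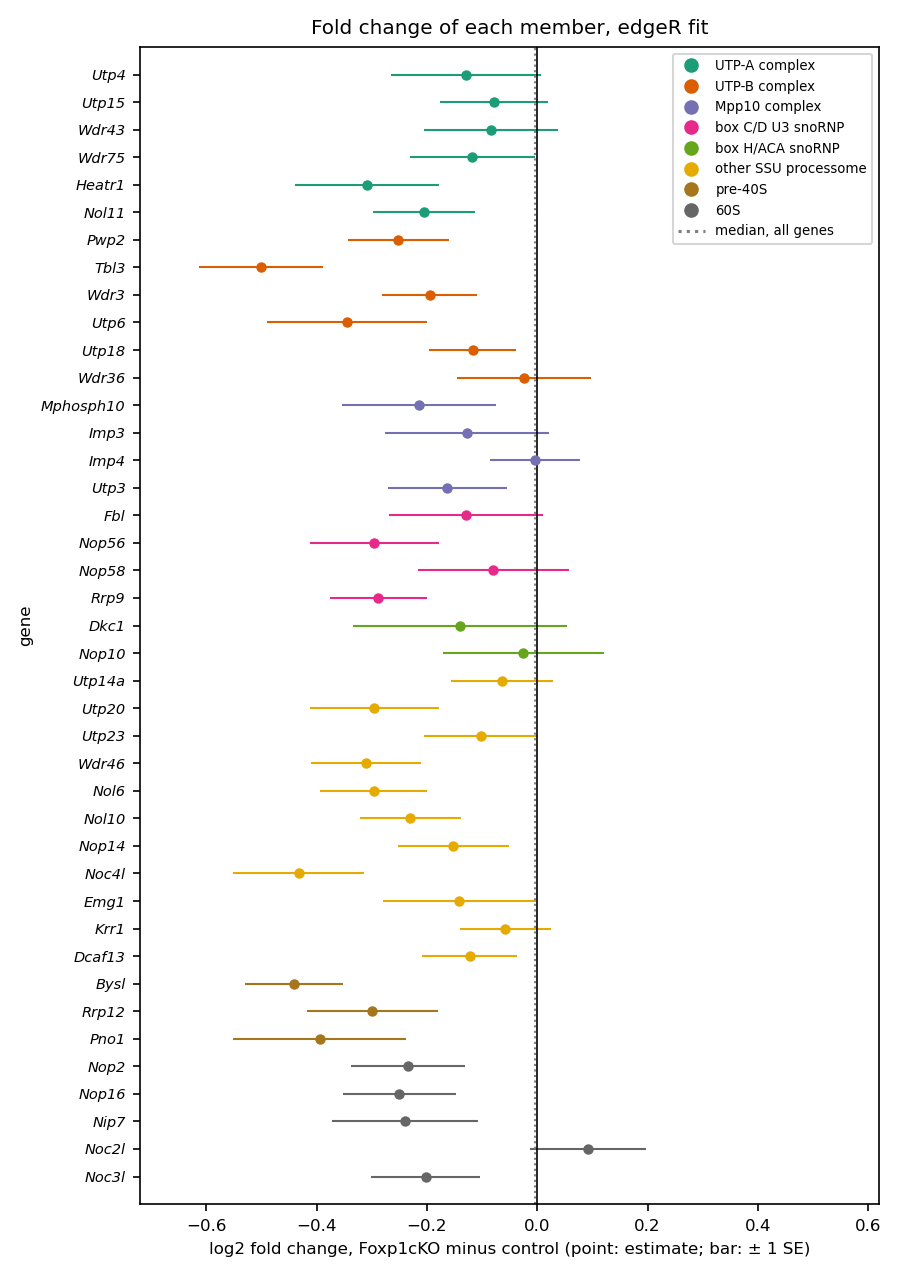
Log2 fold change of each of the 41 members (points) with 1 standard error to each side (bars) from the edgeR fit, colored by complex or step, and the median of all genes as a dotted line. Estimates run from -0.50 for Tbl3 to 0.09 for Noc2l, and many bars reach close to or over zero.

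The standard errors of the members ran from 0.0796 to 0.194 with a median of 0.108, against a median log2 fold change of -0.20. No test of one member group against another was made, and members of a complex were measured in the same 6 libraries. In the histogram of fold changes the members form a narrow peak to the left of the center of all genes rather than a long tail.

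**Figure D3:**
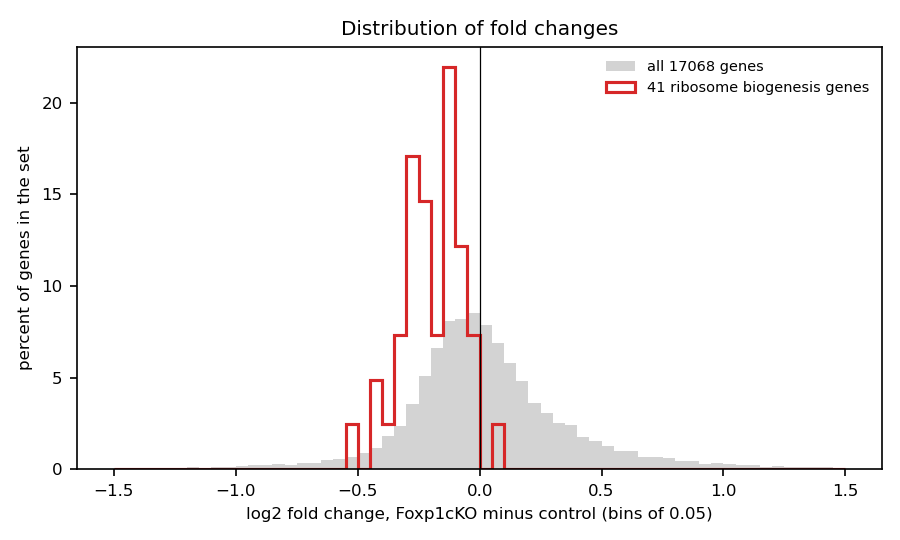
Share of genes (percent of the set) by log2 fold change in bins of 0.05, for the 41 members (red line) and all 17068 genes (gray), with 177 genes beyond the plotted range. The members lie between -0.50 and 0.09, inside the bulk of all genes.

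Per exon length, the RNA of the members was at a median of 15.0 RPKM (CPM per kilobase of exon) in the controls, against 4.60 RPKM over all genes. Nop56 was the highest at 42.7 RPKM and Noc2l was close at 42.4 RPKM, a gap inside the spread of their controls. Dcaf13 was the lowest at 4.99 RPKM, and Utp23 and Wdr36 followed at 6.33 and 6.88 RPKM. Subunits of the same complex were not at equal levels. Within UTP-B, Utp6 was at 27.5 RPKM and Wdr36 at 6.88 RPKM, and within the Mpp10 complex Imp3 was at 31.4 RPKM and Imp4 at 7.57 RPKM. The lengths are those of all annotated exons of a gene, so a gene with long, rarely used exons reads low on this scale.

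**Figure D4:**
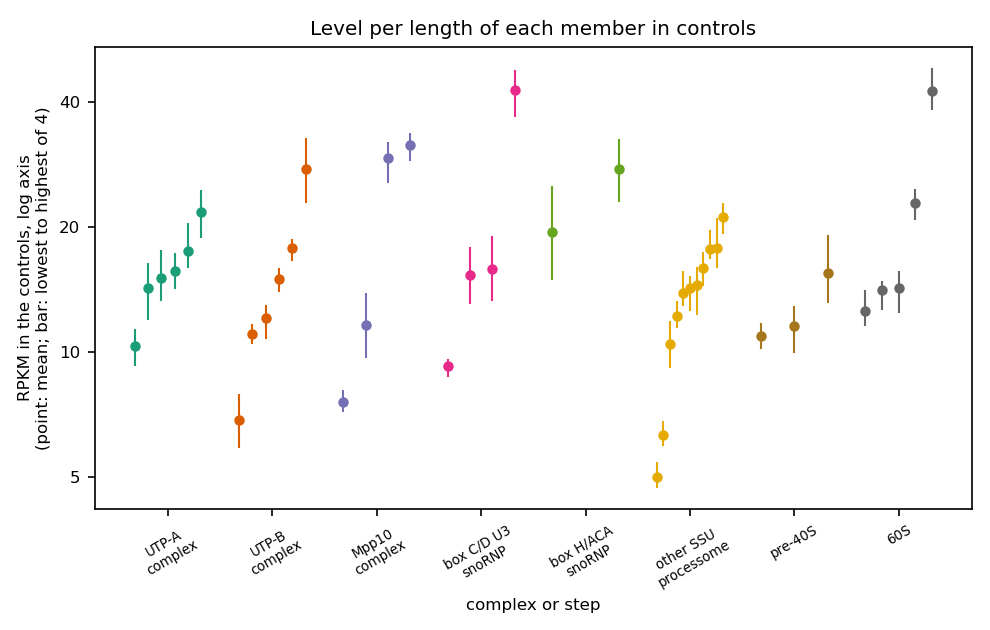
Mean RPKM of each member in the 4 controls (points, log axis) with the lowest and highest control (bars), grouped by complex or step and ordered by level within it. Levels run from 4.99 RPKM for Dcaf13 to 42.7 RPKM for Nop56, and members of the same complex differ in level.

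The rest of the pathway was read from fixed lists, and edgeR's adjusted test called 0 genes in each. Over all genes, 50.7% were lower, and 6.50% were lower at an unadjusted p under 0.05. RNA polymerase I and its factors had 10 of 15 genes lower, a median log2 fold change of -0.12 and 3 genes lower at an unadjusted p under 0.05. The median was -0.066 without control 4, -0.069 without Foxp1cKO 1 and -0.18 without control 3. The lowest p there was that of Ubtf, the factor that opens ribosomal DNA for the polymerase, at 187 to 206 CPM in the controls and 163 and 172 CPM in the Foxp1cKO libraries (log2 fold change -0.24, SE 0.0744, edgeR Benjamini-Hochberg adjusted p = 0.289).

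Factors of the large subunit outside the 41 members had 38 of 42 genes lower (median -0.15). There were 11 at an unadjusted p under 0.05, all lower, against 6.50% of all genes lower at that p. Bop1, which with Pes1 and Wdr12 matures the large-subunit RNA, was at 63.1 to 70.6 CPM in the controls and 49.8 and 49.4 CPM in the Foxp1cKO libraries. This was a log2 fold change of -0.42 (SE 0.0767), with an adjusted p of 0.179 by edgeR and 0.00021 by DESeq2 (both Benjamini-Hochberg). Small-subunit factors outside the members had 22 of 25 lower (median -0.15, 4 at an unadjusted p under 0.05), led by Nop9 at -0.36. All 15 nucleolar RNA helicases were lower (median -0.14, 4 at an unadjusted p under 0.05), led by Ddx21 at -0.33. Without Foxp1cKO 2 the helicases had 13 lower and a median of -0.22.

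The RNA exosome, which trims and degrades precursor pieces, had 11 of 14 genes lower, led by Exosc9 at -0.30. Its median was -0.14, and -0.078 without control 4. There were 3 genes lower at an unadjusted p under 0.05, against 6.50% of all genes. Other proteins of small nucleolar particles had 9 of 11 lower with a median of -0.084, which was -0.0032 with 6 lower without control 4 and -0.035 with 7 lower without Foxp1cKO 1. Of these the assembly factor Naf1 had the lowest p but was higher, at 15.0 to 24.1 CPM in the controls and 24.9 and 24.2 CPM in the Foxp1cKO libraries (log2 fold change 0.40, SE 0.182, edgeR Benjamini-Hochberg adjusted p = 0.410). Nucleolar structural proteins had 4 of 7 lower with a median of -0.099, which was -0.20 without control 3 and turned to 0.025 without control 4. Their lowest p was that of Nolc1, at -0.32 (SE 0.0909, edgeR Benjamini-Hochberg adjusted p = 0.279), while the abundant nucleolin (Ncl) and nucleophosmin (Npm1) had log2 fold changes of -0.099 and 0.027, within their standard errors.

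The Myc network list held the Myc proteins, which drive this pathway in many tissues, together with partners and antagonists. A median over it is therefore not a measure of Myc activity. The list had 5 of 11 genes lower and a median of 0.033. That median was -0.061 without control 1, -0.0058 without control 4 and -0.015 without Foxp1cKO 2, so no direction can be given for this list. Mxd3, an antagonist of Myc, was at 24.6 to 29.8 CPM in the controls and 18.2 and 20.1 CPM in the Foxp1cKO libraries (log2 fold change -0.47, SE 0.114, edgeR Benjamini-Hochberg adjusted p = 0.242) and was the only gene of the list at an unadjusted p under 0.05. Mycn was at 104, 91.9, 77.7 and 128 CPM in the controls and at 125 and 135 CPM in the Foxp1cKO libraries, and Myc at 12.4 to 17.9 CPM and at 13.6 and 16.7 CPM. Mycn thus had the control order of the members, with control 4 high and control 3 low, but its Foxp1cKO libraries were at 2 of the 3 highest values. Members with an E-box in the promoter had a median log2 fold change of -0.21 (9 genes) and those without it -0.18 (24 genes).

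Proteins of the ribosome itself gave different values by compartment. The 75 mitochondrial ribosomal proteins had 65 lower and a median of -0.18. Both Foxp1cKO libraries were below all controls for 35 of them, against 13.1% of all genes. The 81 cytosolic ribosomal proteins, which the members assemble into subunits, had 24 lower and a median of 0.052, a value that turned to -0.033 without control 3 and to -0.13 without the library labelled Foxp1cKO 2. Their mean log2 CPM was 7.60 and 7.95 in the libraries labelled Foxp1cKO 1 and 2, a gap that spans most of the control range of 7.46 to 7.96. No direction can be given for the cytosolic list, and the difference between it and the members was not tested. The panels of list levels by library show the members, the related lists and the markers on the same axis.

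**Figure D5:**
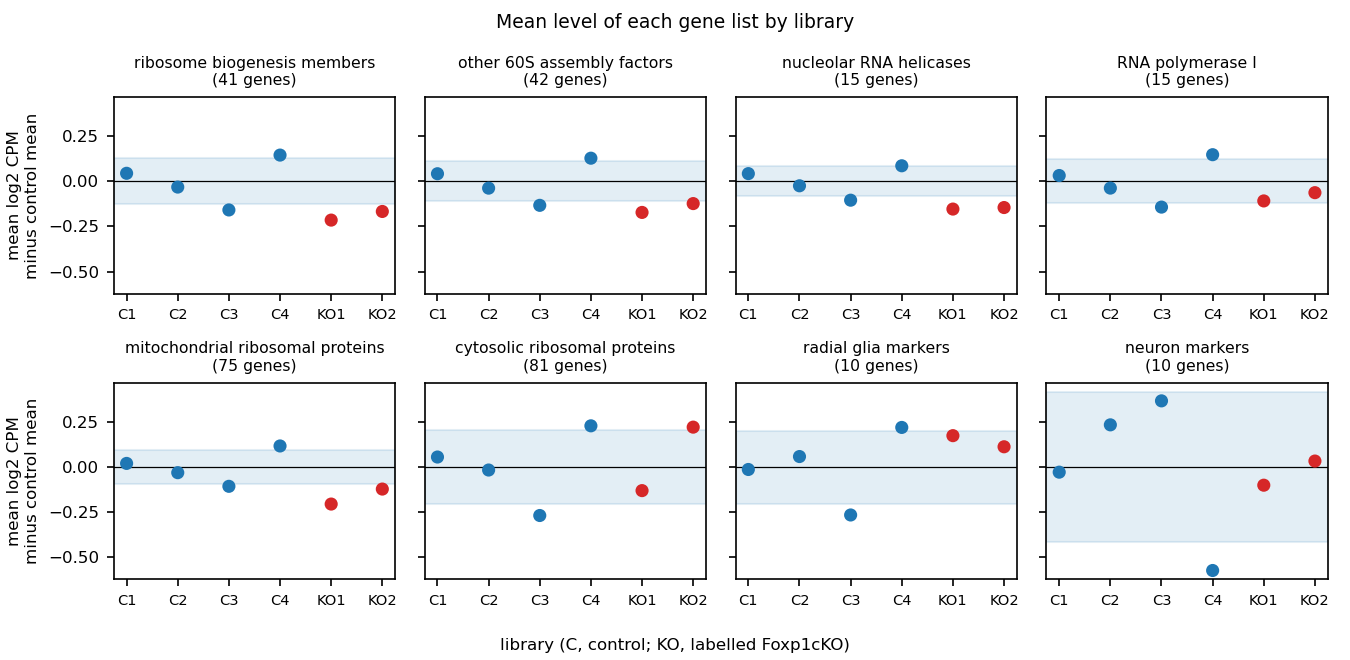
Mean log2 CPM of each gene list in each library minus the mean of the 4 controls, with controls in blue, libraries labelled Foxp1cKO in red and 1 SD of the controls to each side of zero shaded. Control 4 is above and control 3 below the other controls in the members and the related lists, and both red points of the members are below all 4 blue points.

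Cell type markers also varied among the controls in which the members were high or low. The 10 radial glia markers had a mean log2 CPM of 7.42, 7.49, 7.17 and 7.65 in controls 1 to 4, the same highest and lowest library as the members, and 7.61 and 7.55 in the libraries labelled Foxp1cKO. The 10 neuron markers ran the other way, at 8.30, 8.56, 8.69 and 7.75 in the controls, and were at 8.23 and 8.36 in the Foxp1cKO libraries. Summed, the radial glia markers were at 2574 to 3147 CPM in the controls and 3039.8 and 2935 CPM in the Foxp1cKO libraries, and the neuron markers at 3098 to 5811 CPM and 4199.5 and 4329.8 CPM. Of the radial glia markers 3 were lower and 7 higher in the Foxp1cKO libraries, and of the neuron markers 7 were lower and 3 higher, with 4 lower without control 3 and 9 without control 4. The members and the radial glia markers thus shared their highest and lowest control, while controls 1 and 2 were in opposite order.

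Of the 6 intermediate progenitor markers 5 were lower, with a median log2 fold change of -0.27, which was -0.43 without Foxp1cKO 2. Of the 9 red blood cell markers 8 were higher. They were at 5.05 to 6.72 in mean log2 CPM in the controls, with control 4 the highest, and at 6.71 and 6.85 in the Foxp1cKO libraries, and their summed level was 1099 to 3544 CPM and 3849 and 4143 CPM. Of the 9 microglia and macrophage markers 7 were higher, and they summed to 23.9 to 38.5 CPM in the controls and to 41.8 and 39.0 CPM in the Foxp1cKO libraries. The part of cell composition in the level of the members was not tested.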

How the data were processed

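Lateral cortex RNA of 6 embryos was analysed from processed tables. Stranded libraries were read in pairs of 150 bases, and the authors used STAR (mm10) for alignment and HTSeq 0.9.1 (union mode) for gene counts, then dropped genes with few counts. These deposited counts are whole and not normalized. The deposited variance-stabilized values are on a log2 scale and were used for 1 alternative and for the pairing check alone. The litter that the authors modelled was not used here.

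Counts were tested in R 4.3.3 with edgeR 4.0.16 (TMM, quasi-likelihood test, group only) over all 17068 genes. DESeq2 1.42.0 and limma 3.58.1, total counts, DESeq2's size factors, low-count filters, leaving out each library and a replicate block were alternatives. The edgeR step was tested on simulated data. Log2 CPM used a prior count of 2. Symbols, positions and exon lengths came from GENCODE M21 (GRCm38), which held 17047 of the identifiers and is another release than the authors'. Promoters came from RefSeq.

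The members and gene lists were chosen with earlier results of these data known. Full values are given for the member with the lowest p in each group and those with the extreme fold changes, the extreme RPKM values are named, and of each pathway list the gene with the lowest p is named, with Myc network genes at an unadjusted p under 0.05. Other members are described within their complex, and any further gene was named after its values were seen. Nothing in the labels says how the embryos relate by litter, so p-values measure the spread between these 6 libraries. Between pairs of libraries the chi-square statistic per gene was at least 25.9, so no pair agreed within sampling noise.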

Additional observations from a re-analysis of the deposited data

How the results depend on the processing

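By DESeq2's Wald test 2 members and 507 genes in all were called (310 higher, 197 lower), against 0 and 26 by edgeR, and the cause was not tested. With the replicate number as a block 0 members and 0 genes were called, 39 members were lower, their median was -0.19 and 13 had an unadjusted p under 0.05. Only numbers 1 and 2 are shared, and same-numbered libraries deviated with a correlation of -0.117. The 2 Foxp1cKO libraries were centered on their own mean, so crossed numbers gave the same value with the opposite sign. This check therefore cannot decide whether the numbers pair the embryos. The crossed pairing, added after seeing the data, called 5 members and 1301 genes. Under total counts 7 members had an unadjusted p under 0.05 instead of 15, against 5.23% instead of 6.50% of all genes lower. With a control left out, that number was 8 (without control 1) to 22 (without control 3), with fewer samples in each fit. The share of all genes lower at that p was 3.81% to 9.39% in those fits. Genes called were 2 (without control 2) to 96 (without control 4), with 6, 9 and 3 without control 1, Foxp1cKO 1 and Foxp1cKO 2. The count of members that separated was 20 (without control 4) to 32 (without control 3) with a control left out. Over all genes the share was 14.5% to 21.3% in those fits. Under total counts 18 members separated, against 11.5% of all genes. Dkc1 changed sign without control 4, to 0.0089, and ranged down to -0.26 (without control 3) with other libraries left out. With each control left out in turn, the members called by edgeR stayed at 0. The number lower was 35 to 40 and the median -0.25 to -0.15 with each library left out, and the median stayed below 0 under every alternative. DESeq2 also called Bop1, Exosc9 and Mxd3. The lowest count of any member in any library was 876, and the part of counting error in the spread between embryos was not tested.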

Other observations

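The members were also set against the marker and ribosomal lists within each library, comparisons made after the values had been seen. The mean log2 CPM of the members minus that of the radial glia markers was -1.49, -1.64, -1.44 and -1.62 in controls 1 to 4 and -1.94 and -1.83 in the libraries labelled Foxp1cKO, so both Foxp1cKO libraries were below all controls and the order among controls was no longer that of the members. Minus the neuron markers, the values were -2.37, -2.71, -2.97 and -1.72 in controls 1 to 4. The Foxp1cKO libraries were at -2.55 and -2.64 there, inside the range of the controls. Minus the cytosolic ribosomal proteins, the values were -1.85, -1.86, -1.73 and -1.93 in the controls and -1.93 and -2.23 in the Foxp1cKO libraries, where control 4 and Foxp1cKO 1 were level. Minus the mitochondrial ribosomal proteins, they were 1.03, 1.00, 0.951 and 1.03 in the controls and 0.994 and 0.958 in the Foxp1cKO libraries, inside the range of the controls. These differences were not tested.

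Endothelial markers, a cell type outside the Emx1 lineage, had 4 of 10 genes lower in the Foxp1cKO libraries, a number that was 1 without Foxp1cKO 1 and 6 without control 2, control 3 or Foxp1cKO 2, with mean log2 CPM of 3.38 to 4.03 in the controls and 3.66 and 4.06 in the Foxp1cKO libraries. Flt1, a receptor of vascular growth factors and the only called gene of all lists by edgeR, was at 12.5 to 18.1 CPM in the controls and at 44.6 and 54.2 CPM in the Foxp1cKO libraries (log2 fold change 1.64, SE 0.159, edgeR Benjamini-Hochberg adjusted p = 0.0179).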
